A study of Gossypium with 24 samples.

Results

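Drained cotton roots of variety 9001 and variety 4847 were compared at the end of 96 h of darkness. These are 6 of the 24 RNA-seq libraries of a study of waterlogging and recovery, chosen by their labels alone, with 3 libraries for each variety. Seedlings had been raised to the four-leaf stage, and the plants of both groups were kept dark but never waterlogged, so they are the controls against which the flooded roots of the study were set. The submitters describe 9001 as tolerant of waterlogging and 4847 as sensitive to it. The other 18 libraries are from both varieties. They cover drained plants 24 h after light returned, plants waterlogged in the same darkness, and waterlogged plants 24 h after drainage and light. The labels give neither the number of plants behind a library nor whether its replicates were grown apart. The spread that the p-values rest on may therefore be technical in part or in whole. What this comparison shows is how far the varieties already differed without flooding.

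Upland cotton carries 2 sets of chromosomes, named A and D after the ancestral species that joined to form it, and most genes exist as an A copy and a D copy. Varieties of the same species share nearly all of these genes. Heritable differences in their expression can arise from sequence changes at a gene itself, from loss of a gene, or from a regulator encoded elsewhere. Roots kept without light depend on sugars delivered earlier by the shoot, and after several days of darkness they draw on stored and recycled carbon. The deposited tables hold gene IDs that give the chromosome and a running number but no gene name or description. No function can therefore be given for any gene below, and the root label could not be checked against marker genes.

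The 6 libraries held 37962737 to 38699417 counts each and were evenly deep. Pearson's r of log2 CPM (counts scaled to library size) across the tested genes was 0.987 to 0.988 between libraries of 9001, 0.988 between those of 4847 and 0.974 to 0.976 between the varieties. The biological coefficient of variation, edgeR's measure of replicate spread beyond counting noise, was 7.23% in 9001 and 6.07% in 4847. Levels below are CPM scaled by TMM, edgeR's correction for library composition.

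The profiles of the varieties were close for most genes. Of the 50638 genes tested, 88.1% had a fitted difference of less than 2-fold, and the median log2 difference of 9001 minus 4847 was 0.00. Its tails were uneven, with the 5th percentile at -0.87 and the 95th at 1.44. By edgeR's quasi-likelihood test at an adjusted p under 0.05, 1292 genes (2.55% of those tested) were at least 2-fold higher in 9001 and 743 (1.47%) were at least 2-fold higher in 4847, 4.02% together. Genes that pass both conditions are called higher in a variety below. Without the fold condition the directions were nearly even in this fit, with 3783 genes higher in 9001 (7.47%) and 3715 higher in 4847 (7.34%). That balance depended on the processing. Scaling by library totals alone gave 4129 higher in 9001 and 3431 higher in 4847. Leaving out replicate 1 of 4847 gave 2905 and 3004. With limma on log2(FPKM + 1), which shrinks the differences of weakly expressed genes, 246 genes were called higher in 9001 and 217 higher in 4847 at 2-fold.

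Among the called genes, the libraries of the varieties did not overlap for 1199 genes higher in 9001 and 719 higher in 4847. Over all tested genes, 16.4% had every 9001 library above every 4847 library and 15.5% the reverse. Most called differences were moderate. Between 2-fold and 4-fold were 727 genes higher in 9001 and 444 higher in 4847. Sizes of 4-fold to 8-fold were fitted for 261 and 123 genes, and log2 sizes of 5 or more for 119 and 80. Many of the latter rested on an empty group, since 83 of the 119 and 48 of the 80 had no counts in the lower variety. The median log2 size was 1.83 for genes higher in 9001 and 1.69 for genes higher in 4847. With an empty group counted as holding 3 counts in all, the floor used here, the medians were 1.78 and 1.67.

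**Figure D1:**
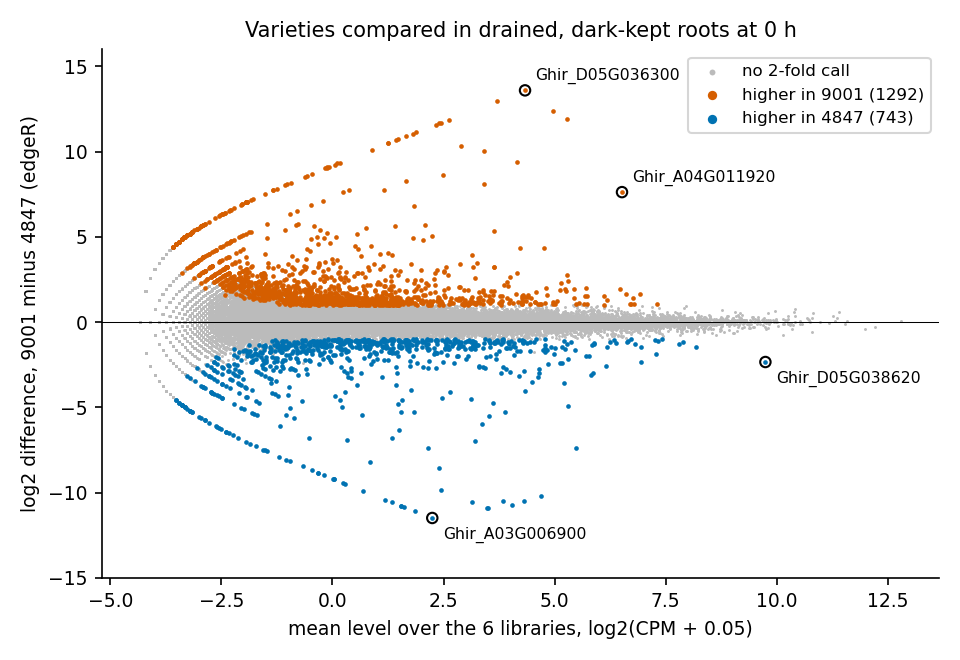
Fitted log2 difference of 9001 minus 4847 against the mean level over the 6 libraries on a log2 scale, 1 point per tested gene, with the 1292 genes called higher in 9001 in orange, the 743 called higher in 4847 in blue and the 4 genes described in the text circled. Most points lie close to 0, and the curved outer edges are genes with no counts in one variety.

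The excess of genes higher in 9001 lay among weakly expressed genes. Below a mean of 1 CPM over the 6 libraries, 767 of 15067 tested genes were called higher in 9001 (5.09%) and 331 higher in 4847 (2.20%). From 1 to 10 CPM the numbers were 427 and 295 of 18542 genes. At 10 CPM or more the order turned, with 98 genes higher in 9001 and 117 higher in 4847 of 17029. The 1560 genes at 100 CPM or more included 6 called higher in 9001 and 13 called higher in 4847. The numbers at 100 CPM or more are small, and the difference between levels was not tested.

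Few of the counts belonged to these genes. Those called higher in 9001 held 0.754%, 0.744% and 0.751% of the counts in the 9001 libraries, and 0.239%, 0.238% and 0.239% in the 4847 libraries. Those called higher in 4847 were fewer but held more, with 1.07% ± 0.00211 of the counts in 4847 and 0.335% ± 0.00230 in 9001 (SD, n = 3). In the lower variety, 3 counts or fewer over the group were found for 19.1% of the first set and 17.1% of the second. Where the lower variety had more than 3 counts, the median log2 size was 1.53 in the first set and 1.48 in the second. Called genes were slightly shorter than the rest, with a median length of 1700 bases for those higher in 9001 and 1664 bases for those higher in 4847, against 1898 bases for all tested genes.

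**Figure D2:**
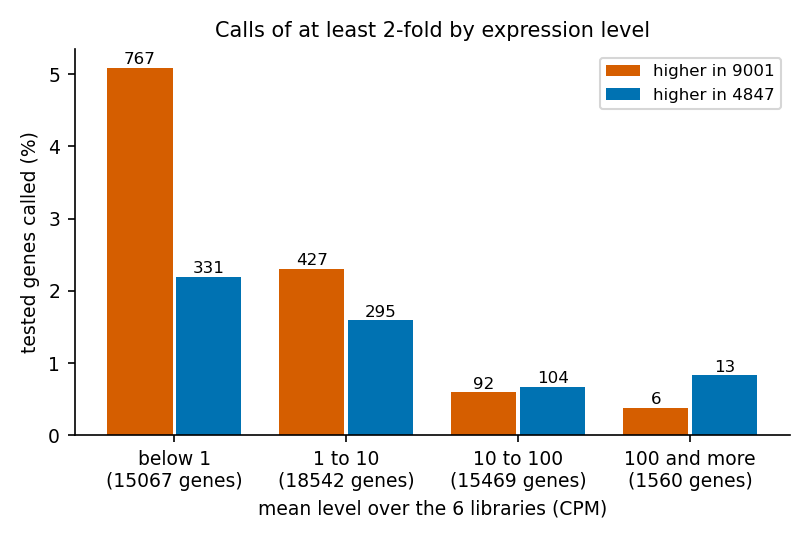
Share of tested genes called at least 2-fold higher in 9001 (orange) or in 4847 (blue) by mean level over the 6 libraries in CPM, with the number of called genes above each bar. Orange bars are the taller below 10 CPM, at 767 against 331 genes in the lowest class, and the shorter from 10 CPM upward.

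More genes were detected in 9001 at equal depth. With each library thinned to 37000000 counts, 41925, 41858 and 41924 genes had at least 10 counts in the 9001 libraries, and 41211, 41226 and 41262 in the 4847 libraries. All 9001 libraries lay above all 4847 libraries, by 669 genes on average. An exact permutation test, two-sided, gave p = 0.1, which 3 libraries against 3 cannot go below. The 100 most abundant genes held 13.4% ± 0.201 of the counts in 9001 and 13.1% ± 0.0532 in 4847 (SD, n = 3). Those groups also did not overlap, and the same exact test gave p = 0.1. The 1000 most abundant genes held 37.0% ± 0.333 and 36.8% ± 0.116, where the libraries overlapped (exact permutation p = 0.4).

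The most abundant root genes were nearly the same in both varieties. Of the 100 with the highest mean CPM in each, 89 were shared. Among the 111 genes in either list, 40 were higher in 9001 and 28 higher in 4847 by edgeR at an adjusted p under 0.05, without a fold condition. Over all tested genes those shares were 7.47% and 7.34%. Only 1 of the 111 was called at 2-fold, against 4.02% of all tested genes. It was Ghir_D05G038620, described next, with a log2 size of 2.34.

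Ghir_D05G038620, on chromosome D05, had the largest CPM difference of the genes called higher in 4847 and detected in both varieties. It was at 1415, 1427 and 1449 CPM in the 4847 libraries and at 272, 296 and 278 CPM in the 9001 libraries. No library of one variety came near the other. The log2 difference of 9001 minus 4847 was -2.34 (SE 0.0383, edgeR adjusted p = 1.41e-38), which is 5.07-fold higher in 4847. The other conditions kept the order. At 24 h it was at 351 ± 14.7 CPM in drained 4847 and 31.8 ± 1.83 CPM in drained 9001, and in waterlogged roots at 0 h at 861 ± 19.7 and 187 ± 2.67 CPM (SD, n = 3). Its highest level was 6645 ± 46.7 CPM in 4847 at 24 h after waterlogging, against 1627 ± 53.7 CPM in 9001.

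Ghir_A04G011920, on chromosome A04, had the largest CPM difference among genes called higher in 9001 that were detected in both varieties. The 9001 libraries had 183, 186 and 177 CPM and the 4847 libraries 1.19, 0.642 and 0.927 CPM. The log2 difference was 7.62 (SE 0.129, edgeR adjusted p = 4.66e-38), a fold of 197. In 9001 this gene was lower in each of the other conditions, at 30.6 ± 1.70 CPM in drained roots at 24 h, 33.2 ± 3.53 CPM in waterlogged roots at 0 h and 54.7 ± 1.69 CPM at 24 h after waterlogging (SD, n = 3). In 4847 its group means stayed between 0.377 and 1.38 CPM in all 4 conditions.

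The largest fitted fold in each direction belonged to a gene with no counts in the lower variety. Ghir_D05G036300, on chromosome D05, had 1576, 1730 and 1564 counts in the 9001 libraries and 0 in each 4847 library (edgeR adjusted p = 6.75e-33). With the empty group counted as holding 3 counts in all, it was 1615-fold higher in 9001. It stayed near 0 in 4847 elsewhere, with 0 counts in drained roots at 24 h, 8 counts over 3 libraries in waterlogged roots at 0 h and 1 count at 24 h after waterlogging. In 9001 it was at 40.2 ± 2.62 CPM in the dark controls and between 28.4 and 84.3 CPM, as group means, in the other conditions. The gene was thus seen in every 9001 group and at no more than trace levels in any 4847 group.

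Ghir_A03G006900, on chromosome A03, had 369, 365 and 397 counts in the 4847 libraries and 0 in each 9001 library (edgeR adjusted p = 2.66e-20). At the same floor for the empty group, it was 379-fold higher in 4847. In 9001 it had 14 counts over 3 libraries in drained roots at 24 h, 1 in waterlogged roots at 0 h and 6 at 24 h after waterlogging. Its level in 4847 varied widely with condition, from 0.767 ± 0.338 CPM in waterlogged roots at 0 h through 9.38 ± 0.498 CPM in the dark controls to 21.3 ± 0.734 CPM at 24 h after waterlogging (SD, n = 3).

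**Figure D3:**
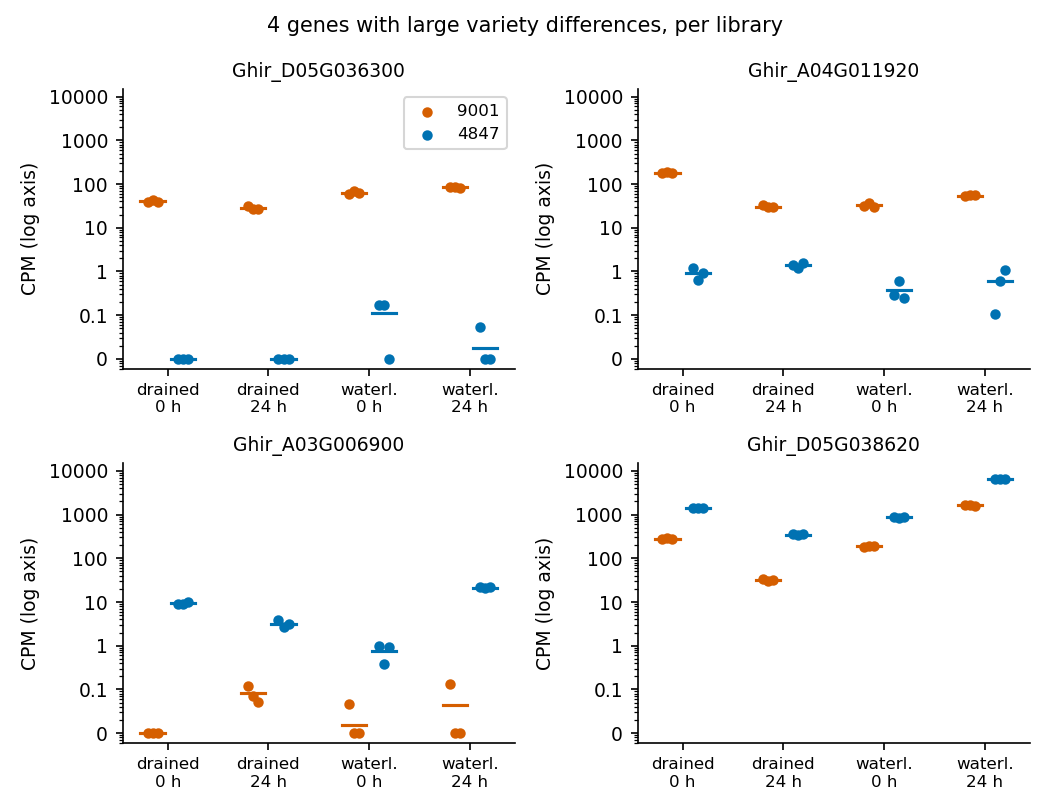
CPM on a log axis in each of the 24 libraries for the 4 genes described in the text, with 9001 in orange and 4847 in blue, points for libraries, bars for group means and libraries without counts drawn at the tick marked 0. The varieties do not overlap in any condition for any of the 4 genes.

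These 2 genes belong to a small class with counts in one variety only. With 0 counts in all 3 libraries of one variety and at least 10 counts in each library of the other, 39 genes were found in 9001 only and 28 in 4847 only. Every one of these was called, but the rule picked them for a large difference in the same libraries, so their calls add no support. The mean count in the expressing variety had a median of 69.7 for the first group, up to 1623, and 63.5 for the second, up to 377. Of the 39 genes, 13 were on A and 26 on D chromosomes, and of the 28, 15 were on A and 13 on D. All tested genes were split into 24904 on A and 25734 on D, and the difference from that split was not tested. Zero counts in a library do not exclude expression below this depth.

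Most of these genes stayed at 3 counts or fewer in that variety over all further libraries. Among the 39 genes seen in 9001 only, 19 had 0 counts in all 9 further libraries of 4847, 10 had 1 to 3 counts over these 9 libraries and 10 had more. Among the 28 seen in 4847 only, the numbers in the 9 further libraries of 9001 were 13, 6 and 9. No gene of either group had at least 10 counts in each of the 9 libraries of the silent variety. In single conditions some did, with 1 of the 39 in every drained 4847 library at 24 h, 1 in every waterlogged 4847 library at 0 h, and 1 of the 28 in every waterlogged 9001 library at 0 h. The highest total in the silent variety was 287 counts over the 9 libraries. In the expressing variety, 23 of the 39 and 10 of the 28 had at least 10 counts in each of the 9 further libraries. By condition, of the 39, 31 had at least 10 counts in every drained 9001 library at 24 h, 27 in every waterlogged 9001 library at 0 h and 33 in every one at 24 h after waterlogging. Of the 28, the numbers in 4847 were 24, 18 and 13. The waterlogged 4847 libraries at 24 h were shallower, with 21423479 to 22442564 counts, and the part of that in the last number was not tested. The 18 further libraries had no part in the choice of these genes.

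The same contrast was then read in the other 3 conditions, whose libraries share no sample with the dark controls but share the fit's filter and its spread per gene. In drained roots at 24 h, 390 of the 1292 genes higher in 9001 were called in the same direction (30.2%, against 2.66% of all tested genes) and 15 in the opposite one. They made up 29.0% of the genes called higher in 9001 there. Of the 743 genes higher in 4847, 275 were called in the same direction (37.0%, against 1.64% of all tested genes) and 22 in the opposite one. The 275 made up 33.1% of the list at 24 h. Over all tested genes, the direction opposite to the first set was called for 1.64% and that opposite to the second for 2.66%. The fitted difference had the same sign for 71.5% of the first set and 82.9% of the second.

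In waterlogged roots at 0 h, 338 genes of the first set were called the same way (26.2%, against 4.72% of all tested genes) and 42 the opposite way. Of the second set, 286 were called the same way (38.5%, against 3.67%) and 19 the opposite way. In those opposite directions, 3.67% and 4.72% of all tested genes were called. Drained roots had been kept in the same darkness, so these groups differ in flooding. At 24 h after waterlogging the varieties differed far more broadly, with 19.6% of all tested genes called higher in 9001 and 10% higher in 4847. There, 802 genes of the first set (62.1%) and 351 of the second (47.2%) were called the same way. These made up 8.07% and 6.91% of the lists called in that condition. Called the opposite way were 58 and 84, against 10% and 19.6% of all tested genes in those directions. The balance of directions in waterlogged roots depended on the scaling. With library totals alone, 30.5% of all tested genes were called higher in 9001 and 5.04% higher in 4847 at 24 h after waterlogging, with 70.6% and 38.3% of the sets called the same way, and at 0 h the order turned, to 3.53% higher in 9001 and 5.33% higher in 4847. With each condition fitted alone on its own 6 libraries, a setting added after seeing the data, 31.2% and 35.3% of the sets were called the same way in drained roots at 24 h, 20.0% and 35.0% in waterlogged roots at 0 h, and 53.6% and 41.4% at 24 h after waterlogging.

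**Figure D4:**
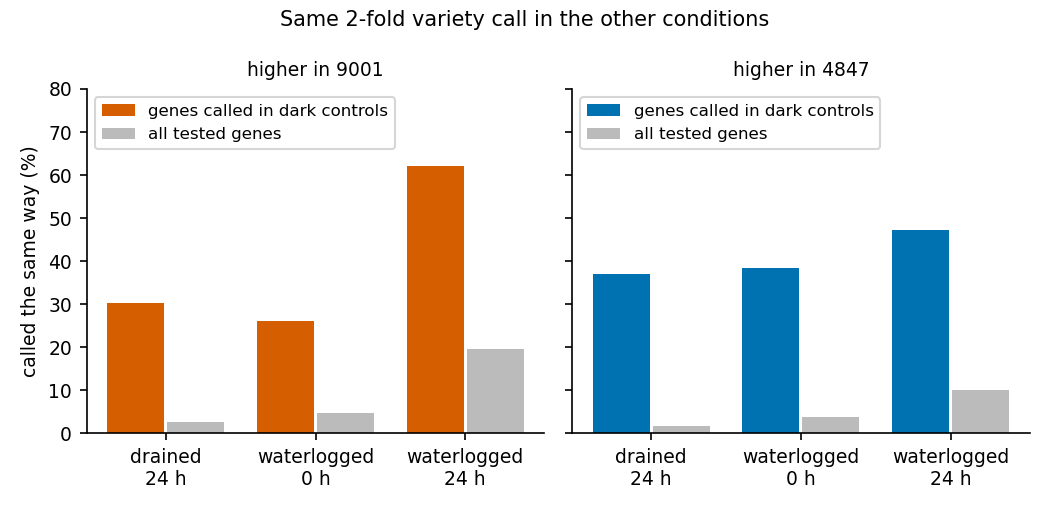
Share of the genes called in dark controls that were called in the same direction in each other condition (coloured bars), beside the share of all tested genes called in that direction there (grey bars). Every coloured bar is taller than its grey neighbour, from 26.2% against 4.72% for genes higher in 9001 in waterlogged roots at 0 h to 62.1% against 19.6% at 24 h after waterlogging.

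A minority of the dark-control differences were present throughout. The same call was made in all 3 other conditions for 147 genes higher in 9001 (11.4%) and 132 higher in 4847 (17.8%), and in none of them for 294 (22.8%) and 237 (31.9%). Large differences were kept more often. Of the genes at least 8-fold higher in 9001, 95 of 304 were called in all conditions (31.3%), against 30 of 727 (4.13%) at 2-fold to 4-fold. For genes higher in 4847 the numbers were 79 of 176 (44.9%) and 34 of 444 (7.66%). Smaller differences lie nearer the threshold and are more easily missed on a second measurement, and the part of that in these shares was not tested. The rest of the 50638 tested genes give the background. Of those not called in the dark controls, 42 were called higher in 9001 and 32 higher in 4847 in all 3 other conditions. There was 1 gene called higher in 4847 in those 3 conditions but higher in 9001 in the dark.

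The levels of the sets across conditions differed between directions. Genes called higher in 9001 had a median of 1.05 CPM in 9001 and 0.274 CPM in 4847 in the dark, the values that chose them. In drained roots at 24 h the medians of the same genes were 2.63 and 1.71 CPM, and at 24 h after waterlogging 1.82 and 0.452 CPM. For genes called higher in 4847 the medians were 0.495 CPM in 9001 and 1.97 CPM in 4847 in the dark, 0.811 and 1.78 CPM in drained roots at 24 h, and 2.12 and 4.44 CPM at 24 h after waterlogging. The median of all tested genes moved between 3.31 and 4.85 CPM over the 8 groups. Both sets thus lay below the typical tested gene in every group except genes higher in 4847 at 24 h after waterlogging in that variety, at 4.44 against 4.15 CPM.

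Called genes were spread over all 26 chromosomes and evenly over both subgenomes. On A chromosomes 2.57% of tested genes were called higher in 9001 and 1.47% higher in 4847, and on D chromosomes 2.53% and 1.46%. Single chromosomes ranged from 3.13% called in all on A09 to 4.96% on A10. On every chromosome the genes called higher in 9001 outnumbered those called higher in 4847.

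Along the order of the IDs the calls were less even. The running number in an ID was taken as the gene's place on its chromosome, and the IDs were divided into windows of 100. In the 610 windows with at least 30 tested genes, the median share called was 3.55%, with quartiles of 2.31% and 5.73%. The share passed 10% in 17 windows. The densest was on D11, at running numbers 30150 to 31320, where 17 of 72 tested genes were called (23.6%), 9 higher in 9001 and 8 higher in 4847. Next were windows on A10 (16.3%), D02 (15.6%), A06 (15.2%) and D05 (15.1%). Each held calls in both directions. Ghir_D05G036300 lies in that D05 window, and Ghir_D05G038620 lies in another of the 10 densest, on the same chromosome, with 12.8% called.

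**Figure D5:**
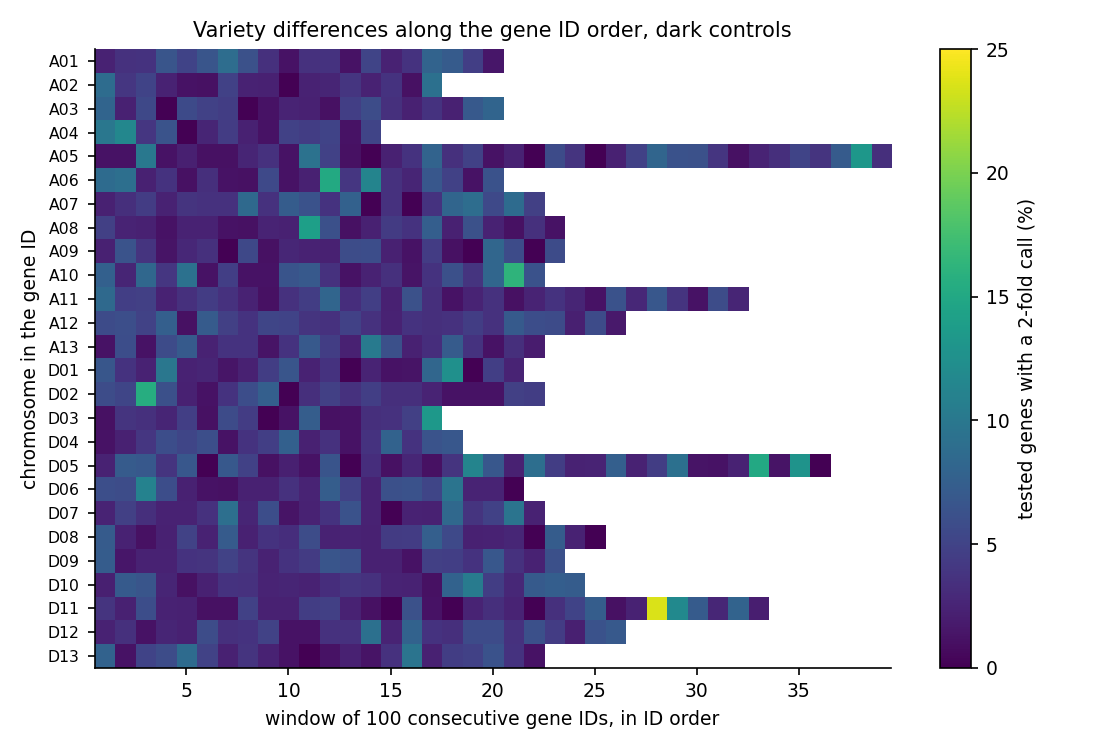
Share of tested genes called at least 2-fold different between the varieties in dark controls, in windows of 100 consecutive IDs along each of the 26 chromosomes, for windows with at least 30 tested genes. The brightest cell is the window on D11 at 23.6%, and most cells lie below 6%.

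The dense windows were chosen for their calls in the dark controls, so their shares there are a description. In the libraries of the other conditions the same windows also held many calls. The 10 densest together had 15.2% of tested genes called in the dark controls, 14.0% in drained roots at 24 h (all tested genes 4.3%), 16.8% in waterlogged roots at 0 h (8.39%) and 36.7% at 24 h after waterlogging (29.6%). In the D11 window, 3 of the 9 genes higher in 9001 and 4 of the 8 higher in 4847 had the same call in all 3 other conditions. Over all called genes those shares were 11.4% and 17.8%, and among genes at least 8-fold higher 31.3% and 44.9%. The median log2 size of the called genes in the window was 1.36 for 9001 and 4.25 for 4847. The calls in this window included 4 of the 28 genes seen in 4847 only. Those in the D05 window included 3 of the 39 seen in 9001 only and 1 of the 28. Being called, these genes are part of the shares by which the windows were chosen.

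Neighbours in ID order tended to share a call. Of the genes next to one called higher in 9001, 6.35% had the same call, against 2.55% of all tested genes, and 2.05% the opposite call, against 1.47%. Next to genes called higher in 4847, 7.56% had the same call, against 1.47%, and 3.58% the opposite call, against 2.55%. Counted by gene, 12.1% of those called higher in 9001 and 13.7% of those called higher in 4847 had a neighbour with the same call. Here a neighbour on either side counts, so these shares cannot be set against the shares of all tested genes above. A neighbour with the same call was more frequent beside differences present throughout. It was found for 24.5% of the 147 genes higher in 9001 in all conditions and 22.0% of the 132 higher in 4847. For genes with the same call in no other condition the shares were 9.52% and 10.1%. Tandem copies of a gene can share reads and levels, and the tables do not say which neighbours are copies.

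The longest run was a block of 6 successive tested genes on D06, at running numbers 2590 to 2690, all called higher in 4847. For 5 of them the fitted log2 size was 4.91 to 10.7, with no more than 3 counts over the 9001 libraries for 2 of the 5. The sixth had 11 counts over the 4847 libraries and none in 9001, a log2 size of 1.88 at the floor of 3 counts. Their summed level was 145, 140 and 144 CPM in the 4847 libraries and 2.76, 2.20 and 3.33 CPM in the 9001 libraries. All 6 were also called higher in 4847 in drained roots at 24 h and at 24 h after waterlogging, and 5 of the 6 in waterlogged roots at 0 h. Of all genes called higher in 4847 in dark controls, 37.0%, 47.2% and 38.5% were called the same way there. The sums stayed apart in each condition, at 84.7 ± 1.81 against 2.18 ± 0.215 CPM in drained roots at 24 h, 176 ± 8.71 against 2.41 ± 1.02 CPM in waterlogged roots at 0 h and 81.0 ± 7.17 against 2.09 ± 0.654 CPM at 24 h after waterlogging (SD, n = 3). In 9001 nearly all of the sum came from 1 gene, at 2.54 CPM in the dark controls.

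For genes higher in 9001 the longest run had 4 tested genes, on D05 at running numbers 36290 to 36330, and included Ghir_D05G036300. Their summed level was 177, 181 and 175 CPM in the 9001 libraries and 34.1, 36.6 and 33.5 CPM in the 4847 libraries. In drained roots at 24 h the sums were 130 ± 2.93 and 12.7 ± 0.689 CPM (SD, n = 3), with 3 of the 4 genes called the same way. In waterlogged roots they were 105 ± 5.78 and 10.3 ± 1.89 CPM at 0 h, with 3 of the 4 called the same way, and 128 ± 1.11 and 21.1 ± 1.12 CPM at 24 h, with 2 of the 4 (SD, n = 3). Of all genes called higher in 9001 in dark controls, 30.2%, 26.2% and 62.1% were called the same way in these conditions. Both runs were picked for their length in these libraries, so no test is attached to them.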

How the data were processed

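The counts deposited by the authors are whole numbers per gene ID for 60633 IDs, not normalized, as the values show. The deposited FPKM values equal each count per column total and gene length, and 1 malformed FPKM line was left out. Per the submitters' processing notes the build is mm10, a mouse assembly, which cannot be that of these cotton IDs. No source used here names the aligner, the counting tool or the use of strand, so counts of near-identical A, D or tandem copies are uncertain.

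All 24 libraries entered 1 edgeR 4.0.16 fit (R 4.3.3, filterByExpr, TMM, glmQLFit, glmQLFTest) with a coefficient per group, Benjamini-Hochberg adjustment over 50638 genes and a threshold of 0.05. The spread per gene is shared with the waterlogged groups. An SE is the log2 difference divided by the square root of F. Of the tested genes, 1061 had no counts in the 6 libraries. Single values per library were tested by exact permutation (scipy 1.17.1). The floor of 3 counts covers counting error only. Data were simulated from the fit's own spread, with changes planted only in genes with a mean of at least 10 counts. At the adjusted p threshold without the fold condition, the fit recovered 61% of changes of 1.5-fold and 92% of changes of 3-fold. There were 6 false calls among 49961 unchanged genes. Recovery of changes in genes below that mean was not simulated.

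Named genes are, in each direction, the largest fold and the largest CPM difference with at least 10 counts in each library of the lower variety, among called genes with at least 5 CPM in the higher variety and no overlap of libraries. Since no table pairs IDs with names, planned lists by gene description were not applied. Comparison, lists and rules were chosen with earlier results of these data known. Alternatives were RLE, upper-quartile and library-total scaling, DESeq2 1.42.0, limma 3.58.1 on log2 FPKM, no filter, 6 libraries alone, a replicate block and leaving out each library.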

Additional observations from a re-analysis of the deposited data

Results flagged for a closer look

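For all 4 named genes the variety difference in dark controls differed from that in at least 1 other condition by a test of the difference itself (edgeR interaction contrasts, adjusted over all tested genes). Values are the log2 difference of 9001 minus 4847 in dark controls minus the same difference in the other condition. The direction of the variety difference was the same in all 4 conditions for each of these genes. For Ghir_A04G011920 the value was 3.15 against drained roots at 24 h (adjusted p = 5.08e-15), 1.17 against waterlogged roots at 0 h (adjusted p = 0.0446) and 1.13 against waterlogged roots at 24 h (adjusted p = 0.0119), so its difference was largest in the dark controls. For Ghir_D05G038620 it was 1.12 against drained roots at 24 h (adjusted p = 1.76e-20), where the excess in 4847 was 11.0-fold, and -0.31 against waterlogged roots at 24 h (adjusted p = 2.08e-06), where it was 4.08-fold. For Ghir_D05G036300 the value was 4.51 against waterlogged roots at 0 h (adjusted p = 0.0178), on 0 and 8 counts in 4847. For Ghir_A03G006900 it was -6.23 against drained roots at 24 h (adjusted p = 0.00121), on 0 and 14 counts in 9001. With an empty group the sizes of these last values depend on edgeR's prior count. These genes were named for their difference in dark controls, which favours a larger value there.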

How the results depend on the processing

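With limma on log2(FPKM + 1), which shrinks differences of weakly expressed genes, 246 genes were called higher in 9001 and 217 higher in 4847, so that 53.1% of calls were higher in 9001 against 63.5%, and 9.72% of the D11 window was called. With adjusted p under 0.05 alone the counts were 3783 and 3715, and with library totals as scaling they were 4129 and 3431. In the other alternatives 932 to 1524 genes were higher in 9001 and 584 to 822 in 4847 at 2-fold. Leaving out 1 library gave 1072 to 1137 and 665 to 696, with 18.7% to 21.3% of the D11 window called. Of the 1292 and 743 calls reported, 920 to 1021 and 595 to 640 were kept. The fit of the 6 libraries alone tested 41984 genes and gave 1037 and 649, of which 924 and 603 were among the calls reported. With the replicate block these were 1014 and 634. Deviations of same-numbered libraries of the varieties correlated with r of 0.00875, 0.00422 and -0.0308, so no shared deviation by number was seen. With so few libraries this cannot show whether they were grown or processed in pairs. Genes with counts in 1 variety only numbered 25 for 9001 and 18 for 4847 at a minimum of 30 counts per library, and 65 and 54 when up to 3 counts were allowed in the silent variety. Without 1 library they numbered 42 to 49 and 29 to 35. The excess of genes detected at equal depth in 9001 stayed between 642 and 692 genes, and the excess share of the most abundant genes between 0.223 and 0.418 percentage points, the latter with leave-one-out values added after seeing the data. The 4 named genes kept direction and call in all 15 alternatives each. Depth limits genes with few counts in the lower variety.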
